A study of Mus musculus with 73 samples.

Results

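The lineage difference of mouse embryos that lack Eed was measured at embryonic day 6.5 (E6.5) by comparing their extraembryonic ectoderm (ExE, 10 libraries) with their epiblast (9 libraries). These 19 RNA-seq libraries were chosen by their titles from 73 samples in the series, of which 72 had columns in the expression table. By the embryo numbers in the labels they came from 10 Eed embryos, of which 9 gave a library of each lineage and embryo 7 gave ExE alone. The numbers in the titles pair the later Eed embryos differently. The reference was the same comparison in wild-type (WT) embryos, with 7 ExE and 7 epiblast libraries from 7 embryos, so 33 libraries entered the fit. All 33 shared the cross: BDF1 mothers and CAST fathers, fertilised by sperm injection and carried by CD-1 foster females. In the Eed group each zygote had also received Cas9 mRNA and a set of guide RNAs against several exons of Eed. Each Eed embryo is therefore a separate disruption, not a member of 1 mutant line, and each library holds one tissue of one embryo, cut at the boundary and stripped of its visceral endoderm.

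Eed is a core subunit of Polycomb repressive complex 2 (PRC2), which places the repressive mark H3K27me3 on the promoters of developmental genes, most of which lie in CpG islands. The epiblast is the pluripotent layer that forms the embryo itself. The ExE is a trophoblast tissue that holds trophoblast stem cells and contributes to the placenta, and it sends Bmp signals to the epiblast. The question was which expression differences between the lineages persist without Eed, which shrink and which appear.

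The promoters of 4 genes are shown because the results on signalling and on identity turn on them. Wnt3 lost its lineage difference without Eed, Wnt4 gained one, and Fgf5 and Elf5 marked the epiblast and the ExE in both genotypes. Each sequence is the 250 bases before a RefSeq transcription start (GRCm38.p6, 5′ to 3′, all on the plus strand), with each CG in capitals.
Wnt3: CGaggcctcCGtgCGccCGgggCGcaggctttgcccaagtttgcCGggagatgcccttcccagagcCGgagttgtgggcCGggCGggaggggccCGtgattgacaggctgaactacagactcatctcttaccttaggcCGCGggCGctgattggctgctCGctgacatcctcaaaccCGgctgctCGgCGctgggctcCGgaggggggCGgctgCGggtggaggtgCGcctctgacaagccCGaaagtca
Wnt4: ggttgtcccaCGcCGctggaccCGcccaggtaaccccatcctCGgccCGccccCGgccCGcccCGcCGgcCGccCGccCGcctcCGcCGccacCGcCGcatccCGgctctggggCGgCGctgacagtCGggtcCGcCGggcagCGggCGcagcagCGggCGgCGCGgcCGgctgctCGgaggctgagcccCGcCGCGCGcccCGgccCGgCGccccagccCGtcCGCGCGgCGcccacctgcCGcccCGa
Fgf5: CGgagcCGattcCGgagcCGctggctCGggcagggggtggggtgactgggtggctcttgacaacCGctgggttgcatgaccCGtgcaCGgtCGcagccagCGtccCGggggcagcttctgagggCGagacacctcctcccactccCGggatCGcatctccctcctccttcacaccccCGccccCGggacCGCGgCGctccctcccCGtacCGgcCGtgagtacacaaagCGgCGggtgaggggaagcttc
Elf5: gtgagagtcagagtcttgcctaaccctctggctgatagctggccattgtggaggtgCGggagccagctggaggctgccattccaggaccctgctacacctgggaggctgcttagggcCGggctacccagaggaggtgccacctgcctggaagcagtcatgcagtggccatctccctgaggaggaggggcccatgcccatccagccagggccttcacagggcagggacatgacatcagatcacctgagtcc
The Wnt3 window (chr11:103773925-103774174) held 22 CG, a count reached by 29.5% of the 8255 promoters of tested genes. In the Wnt4 window (chr4:137277385-137277634) there were 44, reached by 1.04%. The Fgf5 window (chr5:98253934-98254183) held 24, reached by 23.5%, and the Elf5 window (chr2:103411848-103412097) held 2, reached by 97.6%. The Elf5 window precedes a RefSeq start that lies inside the longer gene model of the deposited table. At least 1 CG was present in 99.2% of these promoters, so CG counts describe the windows and do not mark a binding site. A comparison of CpG content between classes of genes was void, because a promoter was at hand for 74.7% of the tested genes.

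Values are CPM: reads over SNPs of a gene, scaled to the library's total of such reads (CPM is the usual name for this scale). They are not scaled to gene length, so levels of different genes are not compared. The Eed libraries ranged in depth from 1421066 to 3500256 reads (epiblast) and from 2116969 to 3976031 (ExE), and the WT libraries 1311863 to 3053690. Eed mRNA itself (chr7:89954654-89981419) ranged from 38.1 to 205 CPM in WT epiblast, 103 to 248 in WT ExE, 2.81 to 19.8 in Eed epiblast and 3.87 to 17.4 in Eed ExE. It was 18.8-fold lower in Eed epiblast and 27.0-fold lower in Eed ExE (edgeR, adjusted p = 2.2e-11 and 4.9e-14), with no overlap between genotypes. The residual Eed reads did not differ between the Eed lineages (log2 difference -0.17 ± 0.32 SE, adjusted p = 0.69). Against the tissue labels, the summed epiblast markers were 1338 to 4830 CPM in Eed epiblast and 343 to 632 in Eed ExE. In WT they were 635 to 1026 in epiblast and 142 to 317 in ExE, so Eed ExE lay above WT ExE. Most of the Eed ExE sum was Utf1, which was higher in WT ExE than in WT epiblast, so this sum is a weak check of the label. The summed ExE markers were 19 to 68.0 in Eed epiblast, highest in embryo 8, and 320 to 598 in Eed ExE. In WT they were 16.8 to 59.5 in epiblast and 455 to 1007 in ExE. Summed visceral endoderm markers, mostly Apoe, were 332 to 564 CPM in Eed epiblast and 356 to 1510 in Eed ExE. In WT they were 144 to 1233 in epiblast, with embryo 8 the highest, and 227 to 530 in ExE. Their part in the results was not tested. Maternal decidua and blood markers summed to at most 30.3 CPM in any library. On the principal components WT ExE of embryos 6 and 8, Eed epiblast of embryo 10, Eed ExE of embryos 7 and 10 and WT epiblast of embryo 2 stood apart from their groups. WT epiblast of embryo 8 did not, but its median correlation with its group was 0.859, against 0.953 or more for the others. Counts of calls were repeated without the 6 libraries other than WT epiblast of embryo 2, and that library was left out alone, as each library was. WT ExE of embryos 6 and 8 are 2 of the 3 female WT ExE libraries, so these libraries and female sex cannot be told apart in WT ExE. In bulk libraries, fewer cells of a type and less RNA per cell cannot be told apart.

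In Eed embryos 5975 of 11053 autosomal genes differed between ExE and epiblast, 54.1% of those tested (edgeR quasi-likelihood test, Benjamini-Hochberg adjusted p under 0.05). Of these, 2981 (27.0%) were higher in ExE and 2994 (27.1%) in epiblast. In WT embryos 6505 genes (58.9%) differed, 3116 (28.2%) higher in ExE and 3389 (30.7%) in epiblast. The change of the lineage difference was tested itself, as Eed difference minus WT difference. It was called for 1705 genes (15.4%), 993 (8.98%) towards ExE and 712 (6.44%) towards epiblast. Among the 6505 genes of the WT comparison, the median absolute log2 difference was 1.33 in WT and 0.83 in Eed. Those genes were chosen on the WT difference. Over the 5975 genes chosen on the Eed difference the medians were 1.09 in Eed and 1.16 in WT. Among these 5975 the change was called for 1069, and the difference was larger in Eed for 366 and smaller for 703. Across all tested genes the WT and Eed differences correlated with Pearson's r of 0.816. This is a description over genes, which are not independent replicates.

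Most WT differences that could be classed were also called in Eed in the same direction, without a called change. A difference persisted for 3724 genes (33.7% of those tested, 57.2% of the WT differences): it was called in both genotypes in the same direction and its change was not called, which does not show that the size was equal. It shrank for 1350 genes (12.2%): it was called in WT and its change was called in the opposite direction. Of these, 623 (5.64%) kept a smaller difference, 629 (5.69%) had none called in Eed and 98 (0.887%) were reversed. It widened for 79 genes (0.715%), and it appeared, called in Eed and not in WT with the change called, for 269 genes (2.43%). Towards ExE and epiblast, 16.4% and 17.3% of tested genes persisted, 5.08% and 7.14% shrank (by WT direction), 0.344% and 0.371% widened, and 1.47% and 0.968% appeared.

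**Figure D1:**
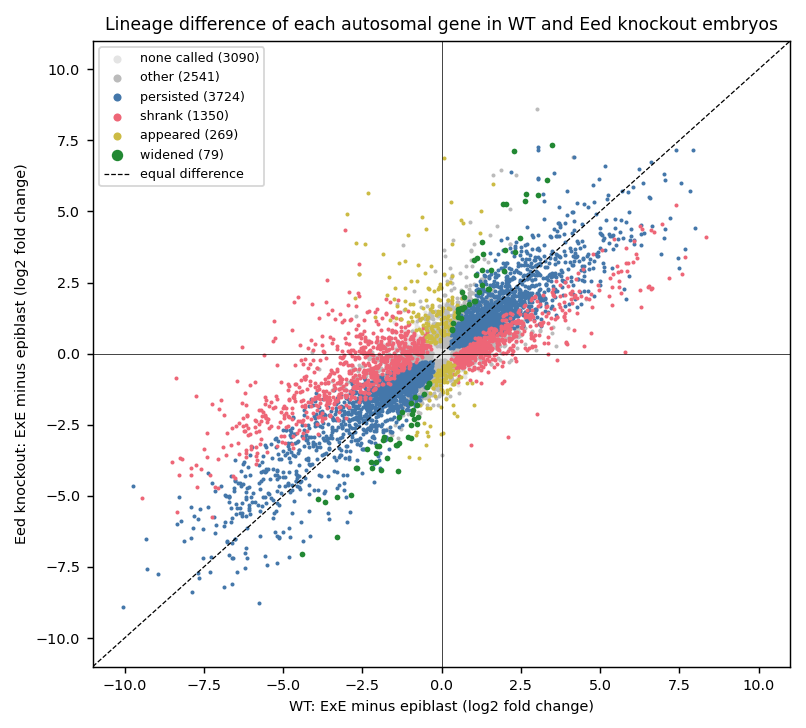
ExE minus epiblast log2 difference of 11053 autosomal genes in WT (horizontal axis) and Eed knockout embryos (vertical axis), with the class of each gene in colour and the line of equal differences dashed. Classes were set by calls and not by distance, and the 3724 persisting genes scatter about the dashed line. The 1350 genes that shrank mostly lie nearer to 0 vertically, and those that reversed lie across 0. Their median difference was 1.54 in WT and 0.35 in Eed (ExE-high), and -2.50 and -0.51 (epiblast-high). The 269 that appeared had median WT differences of -0.23 (towards ExE) and 0.08 (towards epiblast).

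The lineage in which the level moved differed between the classes. Of 789 genes that were higher in WT epiblast and shrank, 621 were higher in Eed ExE than in WT ExE and 212 were lower in Eed epiblast than in WT epiblast. Over all tested genes, 34.5% differed between genotypes in epiblast and 38.7% in ExE: 2207 were higher and 1607 lower in Eed epiblast than in WT epiblast, and 2638 higher and 1636 lower in Eed ExE than in WT ExE. Without TMM scaling these splits were 2870 and 941 in epiblast, and 3115 and 1052 in ExE, with the median of all genes moving from 0.05 to 0.22 and from 0.09 to 0.23 on the log2 scale. The background for these contrasts was 23.9% higher in Eed ExE and 14.5% lower in Eed epiblast. Their median WT level was 17.8 CPM in epiblast and 2.16 in ExE, and the median in Eed ExE was 9.41. Of 561 genes that were higher in WT ExE and shrank, 396 were higher in Eed epiblast (background 20.0%) and 195 were lower in Eed ExE (background 14.8%). Of 162 differences that appeared towards ExE, 132 involved a higher level in Eed ExE. Of 107 that appeared towards epiblast, 43 were higher in Eed epiblast and 65 lower in Eed ExE. The classes and these counts use the same libraries, so the counts describe the classes and are no separate test. Counts of the ExE-high group moved with the libraries that stood apart: without WT ExE of embryos 6 and 8 they were 844, with 639 higher in Eed epiblast, and without WT ExE of embryo 6 alone 867, with 628 higher in Eed epiblast. Without these 2 libraries the epiblast-high group held 1145 genes, of which 427 were lower in Eed epiblast. Without all 6 libraries the ExE-high group held 1000 genes, of which 439 were lower in Eed ExE, and the epiblast-high group 856, so their order changed.

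**Figure D2:**
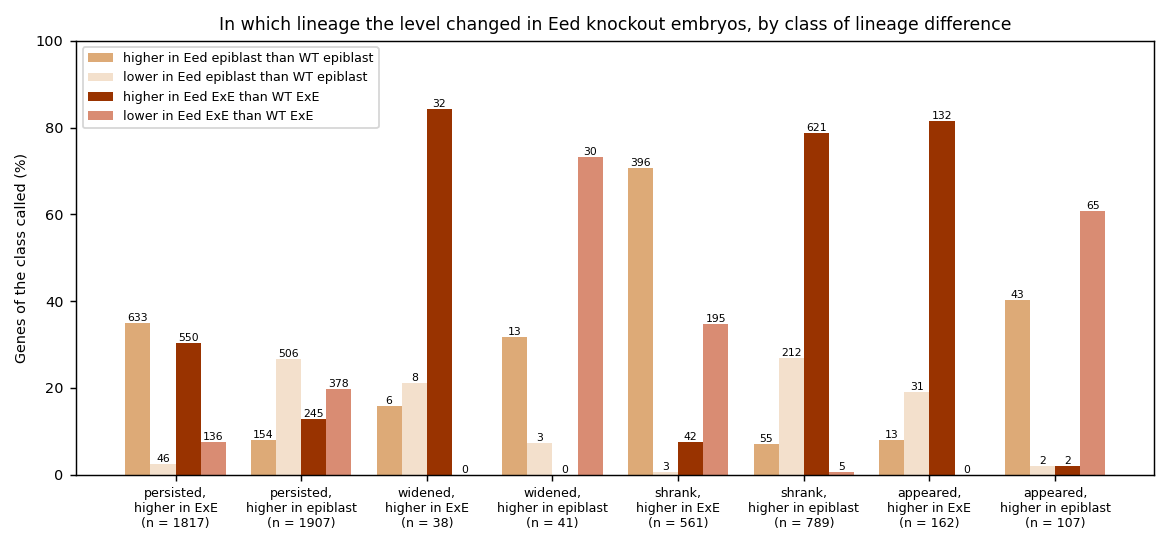
Percentage of the genes of each class (horizontal axis, with direction and number) that were called higher or lower in Eed than in WT, separately for epiblast and ExE, with the number of genes above each bar. Of the 789 epiblast-high genes that shrank, 621 were higher in Eed ExE, and of the 561 ExE-high genes that shrank, 396 were higher in Eed epiblast.

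Identity genes of the ExE mostly stayed higher in ExE, with a smaller median difference. Of 19 tested genes of the ExE and trophoblast stem list, 18 were higher in ExE in both genotypes. Of the 19, 15 persisted and 3 shrank (33.7% and 12.2% over all tested genes). Within ExE, 7 were lower in Eed than in WT (14.8% over all tested genes) and 4 higher (23.9%). Their median log2 difference was 5.00 in WT and 3.51 in Eed, beside -0.05 and 0.00 over all tested genes. The median change over the list was -1.27, against 0.03 over all tested genes. Without WT epiblast of embryo 8, 12 persisted and 6 shrank. Elf5, a transcription factor of trophoblast stem cells (chr2:103411693-103450989), ranged from 171 to 363 CPM in WT ExE (median 265) and from 59.4 to 358 in Eed ExE (median 135). Its epiblast level was 0 to 3.81 in WT and 0 to 18.9 in Eed (median 0.571), where embryo 8 was the highest. The lineages did not overlap in either genotype, and the log2 difference was 5.73 ± 0.50 in Eed and 7.82 ± 0.66 in WT (edgeR, adjusted p = 4.2e-12 and 1.6e-12). The change of -2.09 ± 0.89 was not called (adjusted p = 0.11). The difference of the transcription factor Cdx2 was smaller in Eed, at 3.51 against 6.92 in WT on the log2 scale. It was classed as persisting because its change was not called, which does not show an equal size.

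Within the ExE identity list, Zfp42, Sox21 and Ddah1 shrank. Zfp42, a zinc finger protein also used as a pluripotency marker (chr8:43295067-43307009), was 211 to 364 CPM in WT ExE (median 286) and 34.1 to 144 in Eed ExE (median 75.7). The epiblast libraries held 2.97 to 8.88 in WT and 2.57 to 19.9 in Eed. Eed and WT ExE did not overlap, and the lineage difference went from 5.82 to 3.19 on the log2 scale (change -2.63 ± 0.40, edgeR adjusted p = 1.3e-05). Sox21 (chr14:118233233-118237030), a transcription factor gene that overlaps LOC105245869, was 6.70 to 23.7 CPM in WT ExE and 1.95 to 11.8 in Eed ExE (medians 12.4 and 4.29). Its difference changed by -4.50 ± 1.07 (adjusted p = 0.0037). Split by labelled sex, the Sox21 change was -7.33 in females (edgeR, adjusted p = 0.0031) and -1.54 in males (adjusted p = 0.609). The difference between the sexes was not called (adjusted p = 0.319). Of 8 tested trophoblast differentiation genes, 6 persisted and none shrank (33.7% and 12.2% over all tested genes). In Eed ExE 7 were higher than in WT ExE (background 23.9%), and in Eed epiblast 3 were higher (20.0%). The retrotransposon-derived gene Peg10, needed for the placenta, was 13.2 to 22.7 CPM in WT ExE (median 16.7) and 38.7 to 212 in Eed ExE (median 98.6), without overlap.

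In the epiblast list the called changes also lay towards epiblast, as those of Zfp42, Sox21 and Ddah1 did. Of 15 tested genes, 13 were lower in Eed ExE than in Eed epiblast, against 9 in WT. Of the 15, 7 persisted and 2 shrank (33.7% and 12.2% over all tested genes). The change was called for 7 and all 7 lay towards epiblast, and 6 of the 15 were lower in Eed ExE than in WT ExE. Over all tested genes 6.44% changed towards epiblast and 14.8% were lower in Eed ExE. Without WT ExE of embryos 6 and 8 the change was called for 5 towards epiblast and 1 towards ExE. Fgf5, a ligand of the epiblast (chr5:98254184-98277033), was 407 to 558 CPM in Eed epiblast (median 473) and 0 to 8.53 in Eed ExE (median 1.58), with embryo 10 the highest. In WT it was 289 to 574 in epiblast (median 330) and 0 to 1.07 in ExE. Its difference persisted at -7.56 ± 0.32 on the log2 scale, against -9.30 ± 0.45 in WT (change 1.74 ± 0.63, edgeR adjusted p = 0.054). For Fgf5 by labelled sex, the change was 0.55 in females (edgeR, adjusted p = 0.758) and 2.35 in males (adjusted p = 0.0486). This change was not called different between the sexes (adjusted p = 0.511). Foxd3, a repressor needed for the epiblast, was 0 in 8 of 10 Eed ExE libraries and 23.1 to 75.4 CPM in Eed epiblast. Trh, the precursor of thyrotropin-releasing hormone, was 78.5 to 199 CPM in WT epiblast (median 161) and 411 to 3495 in Eed epiblast (median 819), with no overlap. In Eed ExE it was 0 to 13.7 CPM.

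In this list 2 differences widened and 3 appeared, all towards epiblast, and 4 of these 5 genes fell in Eed ExE. The exception was Pou3f1. Without WT ExE of embryos 6 and 8, and with the replicate block, 1 appeared. Dnmt3b, a de novo DNA methyltransferase (chr2:153649165-153687730), was 576 to 1093 CPM in WT ExE (median 696) and 146 to 421 in Eed ExE (median 269), without overlap. In epiblast it was 2321 to 3555 in WT and 1344 to 3274 in Eed. The lineage difference widened from -1.86 ± 0.22 to -3.05 ± 0.19 on the log2 scale (edgeR, adjusted p of the change = 0.003). With the groups split by labelled sex, the change was -1.89 in females (adjusted p = 0.0023) and -0.68 in males (adjusted p = 0.193). Sox2, a pluripotency factor also used by trophoblast stem cells (chr3:34649995-34652461), was 4.46 to 26.1 CPM in WT ExE (median 6.55) and 1.17 to 11.3 in Eed ExE (median 2.25). Its epiblast level was 15.5 to 24.0 in WT and 15.6 to 37.4 in Eed, so the lineages overlapped in WT and not in Eed. The difference appeared at -2.75 ± 0.35 (change -1.96 ± 0.52, adjusted p = 0.0084), but the call was lost without WT ExE of embryos 6 and 8 (adjusted p = 0.0647). Split by sex, the Sox2 change was -4.01 in females (edgeR, adjusted p = 1.2e-04) and -0.21 in males (adjusted p = 0.845). The sex difference of Eed ExE differed from that of WT ExE (-3.20, adjusted p = 0.0338), while the change did not pass the test of a difference between the sexes (-3.80, adjusted p = 0.0984). Sox2 overlaps the transcript Sox2ot, and the reads carry no strand. Outside the list, Apela, a secreted peptide hormone (chr8:65028417-65037336), was 0.655 to 19.6 CPM in WT ExE and 0 to 4.84 in Eed ExE, and its difference widened from -3.29 to -6.44 (adjusted p of the change = 0.0048). The Apela change was -8.85 in females (adjusted p = 3.5e-04) and -1.39 in males (adjusted p = 0.31). Utf1, a chromatin factor of pluripotent cells, is in the list but was higher in WT ExE, at 103 to 296 CPM against 42.7 to 158 in epiblast. In Eed it was 353 to 914 in epiblast and 333 to 605 in ExE, higher than in WT without overlap in each lineage, and the Eed lineages did not differ (log2 -0.30 ± 0.21, adjusted p = 0.21).

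**Figure D3:**
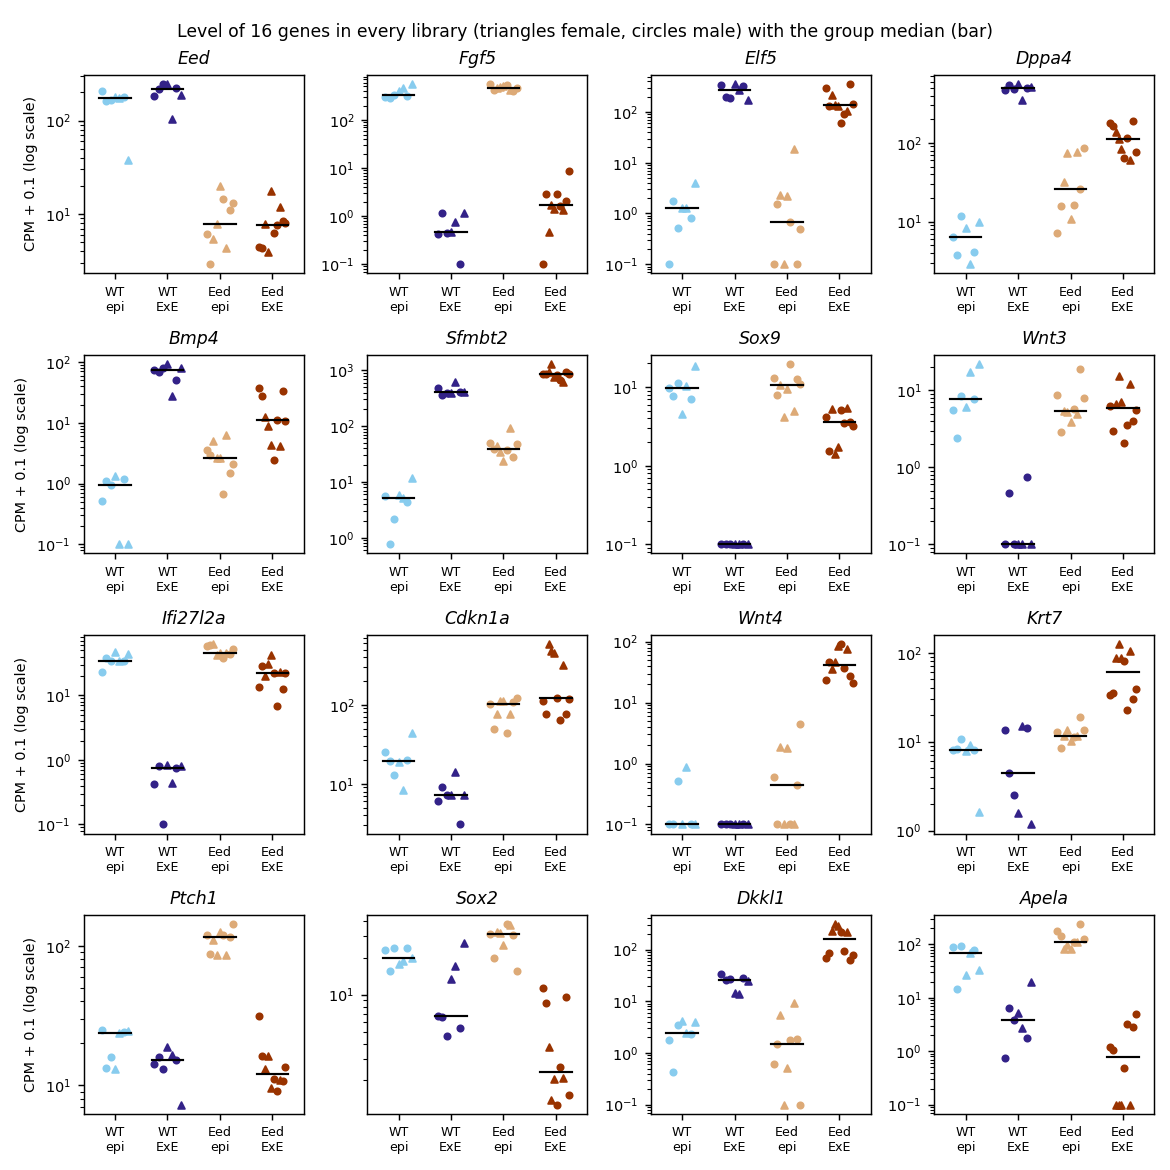
Level of 16 genes (CPM plus 0.1, log axis) in each of the 33 libraries by group, with triangles for female and circles for male embryos and a bar at the group median. Dppa4 and Bmp4 are lower in Eed ExE than in most or all WT ExE libraries, Sox9, Wnt3 and Ifi27l2a are higher in every Eed ExE library than in any WT ExE library, and Wnt4 is at 0 in all 7 WT ExE libraries and at 21.1 CPM or more in all 10 Eed ExE libraries.

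Dppa2 and Dppa4, neighbouring genes on chromosome 16 that encode partner chromatin proteins of early embryos, lost most or all of a large ExE excess. Dppa4 (chr16:48283735-48294292) was 349 to 567.8 CPM in WT ExE (median 499) and 2.77 to 11.7 in WT epiblast. In Eed embryos it was 60.4 to 191 in ExE (median 113) and 7.06 to 86.6 in epiblast (median 25.9), so that the lineages overlapped. The log2 difference was 6.28 ± 0.47 in WT and 1.65 ± 0.33 in Eed, and the change of -4.63 ± 0.54 was called (edgeR, adjusted p = 1.2e-07). The level rose in Eed epiblast (log2 2.41) and fell in Eed ExE (log2 -2.22). Dppa2 (chr16:48310274-48319513) was 45.5 to 106 CPM in WT ExE and 0.363 to 2.94 in WT epiblast. In Eed it was 1.29 to 30.7 in ExE (median 14.2) and 1.51 to 36.5 in epiblast (median 8.99). With both sexes together its Eed lineages did not differ (log2 0.04 ± 0.46, adjusted p = 0.94) and the change was -5.75 ± 0.83 (adjusted p = 7.2e-06). Split by labelled sex, the Eed difference of Dppa2 was -1.98 in females (edgeR, adjusted p = 0.0114) and 1.08 in males (adjusted p = 0.0917). The difference between the sexes was not called (adjusted p = 0.0869), and the change was called in each sex.

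Of the Bmp ligands, Bmp4 and Bmp8b lost part of their ExE excess, Bmp8a kept it and Bmp7 gained one. Bmp4, which acts from the ExE on the epiblast (chr14:46383525-46390669), was 27.7 to 93.8 CPM in WT ExE (median 73.7) and 2.35 to 37.2 in Eed ExE (median 10.8). The epiblast libraries held 0 to 1.21 in WT and 0.571 to 6.18 in Eed (median 2.57). The WT lineages did not overlap and the Eed lineages did. The log2 difference went from 6.53 ± 0.59 to 2.38 ± 0.43 (change -4.15 ± 0.77, edgeR adjusted p = 2.7e-04). Split by labelled sex, the Eed difference was 0.75 in females (edgeR, adjusted p = 0.273) and 3.50 in males (adjusted p = 1.8e-06). The difference between the sexes was not called (adjusted p = 0.095). Bmp4 overlaps Gm15217 and LOC102638002. Bmp8b, a related ligand that overlaps Oxct2b, rose in Eed epiblast: it was 0.791 to 5.34 CPM in WT and 2.42 to 36.5 in Eed epiblast, against 191 to 382 in WT ExE and 135 to 277 in Eed ExE. Its difference shrank from 6.69 to 4.27 (adjusted p = 0.0011), while Bmp8a persisted at 4.56 in Eed and 4.42 in WT. Bmp7 (chr2:172868012-172940321), which overlaps Gm40010, appeared towards ExE. It was 33.5 to 62.6 CPM in Eed ExE (median 40.5) and 1.26 to 15.1 in Eed epiblast, without overlap, against 8.89 to 25.4 in WT ExE and 0 to 45.7 in WT epiblast. Its Eed difference was 2.78 ± 0.42 and its change 2.71 ± 0.61 (adjusted p = 0.0023), a call that limma voom did not make (adjusted p = 0.142). Id3, a target of Bmp signals, shrank from -3.23 to -0.79 in edgeR and was not called by limma voom (adjusted p = 0.213). Over all tested genes 33.7% persisted, 12.2% shrank and 2.43% appeared. Of the 17 tested genes of the Nodal and Bmp list, 8 persisted, 4 shrank and 1 appeared. Nodal, its antagonist Lefty1 and its coreceptor Tdgf1 were among those that persisted, and Nodal and Lefty1 were higher in Eed than in WT in both lineages.

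Of 26 tested genes of the Fgf and Wnt list, 13 persisted, 5 shrank, 2 widened and 4 appeared. In Eed ExE 6 were higher than in WT ExE and 7 lower. The 7 were the receptor Fgfr2, the feedback inhibitors Spry4, Dusp6 and Spred1, the Ets factor Etv5, Wnt6 and the receptor Fzd7. Over all tested genes 33.7% persisted, 12.2% shrank, 0.715% widened and 2.43% appeared. In Eed ExE 23.9% of all tested genes were higher and 14.8% lower. Etv5, which responds to Fgf signals (chr16:22381313-22439570), was 52.3 to 147 CPM in WT ExE (median 72.7) and 8.80 to 78.3 in Eed ExE (median 20.3). In epiblast it was 376 to 473 in WT and 323 to 714 in Eed. Its difference widened from -2.18 ± 0.33 to -4.03 ± 0.30 on the log2 scale (edgeR, adjusted p of the change = 0.0026). Split by sex, the change was -3.19 in females (adjusted p = 3.5e-04) and -0.88 in males (adjusted p = 0.228). For Spry4 and Dusp6, inhibitors of the same pathway, differences of -2.56 and -2.44 appeared in Eed, against -0.36 and -0.56 in WT, and both were lower in Eed ExE (log2 -1.53 and -2.16). With limma voom, 7 genes of this list appeared.

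Wnt3, a ligand that starts the primitive streak (chr11:103774175-103818021), was 2.31 to 22.1 CPM in WT epiblast (median 7.62). In WT ExE it was 0 in 5 of 7 libraries and at most 0.658. In Eed embryos it was 2.81 to 18.7 CPM in epiblast (median 5.33) and 1.95 to 15.5 in ExE (median 5.80). The WT lineages did not overlap, the Eed lineages did, and no Eed ExE library was as low as any WT ExE library. The change of the lineage difference was 5.57 ± 0.81 (edgeR, adjusted p = 7.2e-06), and the Eed lineages did not differ (log2 -0.04 ± 0.38, adjusted p = 0.94). Wnt4 (chr4:137277635-137299501), a ligand of epithelia and gonads, was 0 in all 7 WT ExE libraries and at most 0.791 CPM in WT epiblast. It was 21.1 to 91.8 CPM in Eed ExE (median 41.6) and 0 to 4.39 in Eed epiblast (median 0.346). Against a floor of 3 reads over the WT ExE group (0.148 CPM), the Eed ExE mean of 48.8 CPM was at least 330-fold higher. The Eed difference was 5.66 ± 0.49 on the log2 scale (adjusted p = 2.0e-11). The change of the difference was called (adjusted p = 0.018) but lost without WT epiblast replicate 3 or 6, with an adjusted p of up to 0.175. The inhibitor Sfrp1 (chr8:23411382-23449632) was 0 to 3.67 CPM in WT ExE and 14.7 to 27.3 in Eed ExE. Its epiblast level was 28.7 to 56.9 in WT and 60.2 to 108 in Eed, so both lineages were higher without overlap. Its difference shrank from -5.58 ± 0.39 to -1.76 ± 0.23 (adjusted p = 2.9e-07).

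The epiblast excess of several primitive streak genes shrank. Of 11 tested streak and mesendoderm genes, 10 were higher in WT epiblast, 4 persisted and 5 shrank (33.7% and 12.2% over all genes). In Eed epiblast 7 of them fell (background 14.5%). In Eed ExE 4 were higher and 2 lower, and these 2 were not called without TMM scaling. The summed list was 29.4 to 1366 CPM in WT epiblast and 71.0 to 556 in Eed epiblast, so single embryos differed widely. Mixl1, a homeobox gene of the streak (chr1:180693043-180709055), was 3.96 to 239 CPM in WT epiblast (median 94.8) and 0.704 to 59.0 in Eed epiblast (median 2.22), where embryo 1 was the highest. In ExE it was 0 to 1.43 in WT and 1.17 to 3.54 in Eed. Its difference went from -7.24 ± 0.94 to -1.75 ± 0.70 (edgeR, adjusted p of the change = 0.002). Outside the streak list, in the list of adhesion genes and keratins, the difference of Fn1 also shrank. Fn1, the matrix protein fibronectin (chr1:71585473-71653234), was 58.8 to 439 CPM in WT epiblast and 42.1 to 124 in Eed epiblast. In ExE it was 3.44 to 10.8 in WT and 15.1 to 39.4 in Eed, without overlap. The difference went from -5.07 ± 0.38 to -0.99 ± 0.27 (adjusted p = 3.8e-08).

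Developmental transcription factors, the classic PRC2 targets, were mostly too low to test: 17 of 73 listed genes and 4 of 39 Hox genes passed the filter. A gene that passed through its Eed libraries had to be high there, so these counts describe the tested genes alone. All 4 tested Hox genes were higher in Eed in both lineages, and their summed list was 31.9 to 78.6 CPM in Eed epiblast and 9.77 to 47.7 in Eed ExE. In WT the sum was 1.61 to 19.8 in epiblast and 0.358 to 1.79 in ExE. Of the 17 other factors, 11 were higher in Eed ExE and 9 in Eed epiblast (23.9% and 20.0% over all tested genes), and 5 persisted and 4 shrank (33.7% and 12.2%). Sox9, a factor of cartilage and gonads (chr11:112782210-112787757), was 0 in all 7 WT ExE libraries and 1.29 to 5.28 CPM in all 10 Eed ExE libraries, at least 23.0-fold higher at a floor of 3 reads over the group. The epiblast libraries held 4.44 to 18.3 in WT and 4.11 to 19.7 in Eed. The Eed difference was -1.5 ± 0.31 and the change was called (edgeR, adjusted p = 3.3e-06). Gata4, an endoderm and heart factor that also marks the visceral endoderm (chr14:63198914-63271715), was 0 to 0.667 CPM in WT ExE and 4.92 to 16.1 in Eed ExE. In epiblast it was 0 to 15.2 in WT and 3.08 to 21.7 in Eed, and the Eed lineages did not differ (log2 0.18 ± 0.42, adjusted p = 0.74).

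In the epiblast, a further factor of this list rose. Tbx15, a limb and skeleton factor (chr3:99240349-99354260) that overlaps LOC108168887, was 0 in 6 of 7 WT epiblast libraries and 2.79 to 15.1 CPM in Eed epiblast. In ExE it was 2.15 to 7.45 in WT and 1.99 to 19.4 in Eed. The WT difference was 4.47 ± 0.68 and the Eed difference 0.27 ± 0.32 on the log2 scale (edgeR, adjusted p of the change = 2.5e-04).

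**Figure D4:**
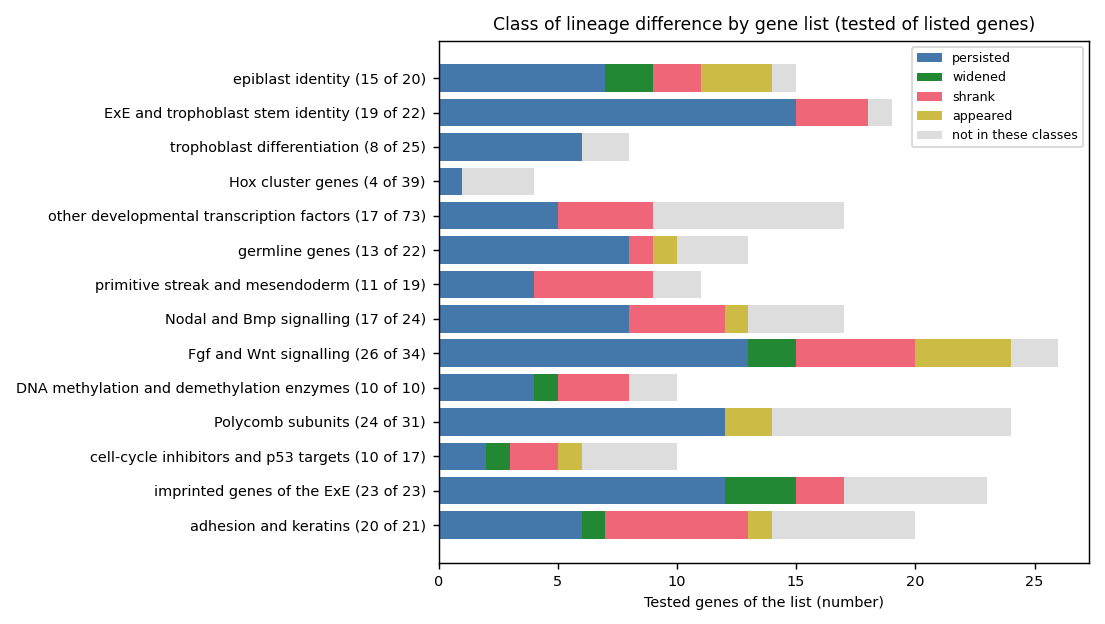
Number of tested genes of 14 lists (bars, with tested of listed genes beside each name) by class of lineage difference. The ExE identity list holds 15 persisting genes of 19, the primitive streak list 5 that shrank of 11, and the Fgf and Wnt list 4 that appeared of 26.

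Germline genes are silenced by several repressive marks in these tissues. They mostly kept their lineage difference: 8 of 13 tested persisted, 1 shrank and 1 appeared. Over all tested genes 33.7% persisted, 12.2% shrank, 0.715% widened and 2.43% appeared. Of the 13, 7 were higher in Eed ExE than in WT ExE (background 23.9%) and none lower. In Eed epiblast 6 were higher (20.0%) and 1 lower (14.5%). Sycp1, a protein of the synaptonemal complex (chr3:102818499-102936100), was 0 to 2.53 CPM in WT epiblast, 8.19 to 27.9 in WT ExE, 10.1 to 40.1 in Eed epiblast and 73.9 to 165 in Eed ExE. The groups did not overlap between genotypes in either lineage or between lineages in either genotype. Its difference shrank from 4.00 ± 0.42 to 2.37 ± 0.24 on the log2 scale (edgeR, adjusted p of the change = 0.024), and with the replicate block the adjusted p was 0.0529. Among 10 DNA methylation enzymes, 4 persisted, 3 shrank and Dnmt3b widened. Dnmt3a, the other de novo enzyme, shrank from -3.90 to -2.83 (adjusted p = 0.021, and 0.0583 with the block). Tet3, a 5-methylcytosine dioxygenase that overlaps Mir6374 and B230319C09Rik, was reversed: it was 12.2 to 19.6 CPM in WT epiblast and 6.09 to 12.3 in WT ExE, against 7.18 to 21.2 in Eed epiblast and 7.16 to 38.3 in Eed ExE. The difference was -0.90 ± 0.28 in WT and 0.63 ± 0.23 in Eed. Split by labelled sex, the Eed difference of Tet3 was 1.15 in females (edgeR, adjusted p = 0.004) and 0.16 in males (adjusted p = 0.684). The difference between the sexes was not called (adjusted p = 0.238). Of 24 tested Polycomb subunits, 12 persisted, none shrank and 2 appeared. Without WT ExE of embryos 6 and 8, 2 shrank and 1 appeared. The 2 that appeared were Jarid2 and Rnf2, with Eed differences of -0.97 and 0.84. The call of Jarid2 was lost without WT ExE of embryos 6 and 8 (adjusted p = 0.0638), and neither passed an absolute log2 threshold of 1.

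Differences that appeared towards epiblast included 2 genes that rose in Eed epiblast and were not called in Eed ExE. Ptch1, the hedgehog receptor and itself a hedgehog target (chr13:63508328-63573616), was 12.9 to 24.9 CPM in WT epiblast (median 23.7) and 86.2 to 143 in Eed epiblast (median 116). In ExE it was 7.15 to 18.6 in WT (median 15.1) and 9.03 to 31.3 in Eed (median 11.9). Every Eed epiblast library lay above every other library. The Eed difference was -2.90 ± 0.18 on the log2 scale, and the change -2.46 ± 0.28 (edgeR, adjusted p = 9.7e-08). Cpsf4l, a paralogue of an mRNA 3′ end processing factor (chr11:113696081-113710075) that overlaps D11Wsu47e, was 5.28 to 11.3 CPM in WT epiblast and 50.9 to 80.9 in Eed epiblast. In ExE it was 3.93 to 10.1 in WT and 1.95 to 14.2 in Eed, and the change was -2.81 ± 0.39 (adjusted p = 4.1e-06).

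Ifi27l2a lost most of its epiblast excess, and Krt7 and Atf3 gained an ExE excess. Ifi27l2a, an interferon-inducible gene (chr12:103433873-103443680) that overlaps Ifi27, was 0 to 0.745 CPM in WT ExE and 6.85 to 42.3 in Eed ExE (median 22.2). Its epiblast level was 23.2 to 46.8 in WT and 38.6 to 63.0 in Eed. Its change of 4.95 ± 0.44 was called with adjusted p = 8.9e-10 (edgeR). Krt7, an epithelial and trophoblast keratin (chr15:101412403-101427806), was 1.07 to 15.0 CPM in WT ExE (median 4.30) and 22.4 to 126 in Eed ExE (median 60.0). The epiblast libraries held 1.52 to 10.5 in WT and 8.44 to 18.7 in Eed, so the lineages overlapped in WT and not in Eed. The difference appeared at 2.44 ± 0.35 (change 2.50 ± 0.56, adjusted p = 0.0019). Atf3, a stress-induced transcription factor, was 2.56 to 44.2 CPM in Eed ExE and at most 5.34 in any library of the other groups. Its change was called with adjusted p = 0.0041 and not without WT epiblast of embryo 8 (adjusted p = 0.134). Dkkl1 (chr7:45207525-45212604), a secreted protein related to the Dickkopf family, widened. It was 14 to 33.7 CPM in WT ExE and 62.5 to 312 in Eed ExE, without overlap, and 0 to 9.11 in Eed epiblast. The change was 2.80 ± 0.75 (adjusted p = 0.0093).

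Cell-cycle inhibitors and p53 targets rose in each lineage: of 10 tested, 9 were higher in Eed epiblast (background 20.0%) and 8 in Eed ExE (background 23.9%), and none was lower. Their lineage differences had no common direction, with 2 persisting, 2 that shrank, 1 that widened and 1 that appeared. Over all tested genes these shares were 33.7%, 12.2%, 0.715% and 2.43%. Cdkn1a, the p53 target that encodes the inhibitor p21 (chr17:29090979-29100722), was 8.31 to 43.5 CPM in WT epiblast and 2.96 to 14 in WT ExE. In Eed it was 44.3 to 121 in epiblast (median 103) and 65.0 to 590 in ExE (median 121), above WT without overlap in each lineage. The lineage difference was reversed, from -1.38 ± 0.46 to 1.47 ± 0.34 on the log2 scale (edgeR, adjusted p of the change = 6.5e-04). Embryo sex moved with this result. The 4 female Eed ExE libraries were at 314 to 590 CPM and the 6 male ones at 65.0 to 122, with no overlap. With the groups split by labelled sex, the Eed lineage difference was 2.24 in females (adjusted p = 1.4e-06) and 0.32 in males (adjusted p = 0.365), and the difference between the sexes was 1.92 (adjusted p = 0.0495). Over all tested genes that lineage difference was called for 45.8% in females and 43% in males, its difference between the sexes for 0.226%, and the change against WT for 9.46% in females and 8.6% in males. Female and male libraries differed for 0.534% of genes in Eed ExE, 0% in Eed epiblast (edgeR, 1381 genes at an unadjusted p under 0.05), 0.0452% in WT ExE and 0.208% in WT epiblast. The sex difference of Eed ExE differed from that of WT ExE for 0.118%, and for Cdkn1a this was not called (1.46, adjusted p = 0.189). The change against WT was called in females (3.31, adjusted p = 2.5e-04) and in males (1.99, adjusted p = 0.0086). The change against WT itself differed between the sexes for 0% of genes (edgeR, 0 of 11053, with 1706 at an unadjusted p under 0.05, and no other tool run). Of the 67 named genes with a called change, 23 had it called in both sexes, 27 in females only, 4 in males only and 13 in neither. The sign was the same in both sexes for all 67, and the absolute change was larger in females for 55. The female WT ExE group holds embryos 6 and 8, which stood apart. This split, which leaves 3 to 6 libraries a group, was chosen after the values had been seen.

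Imprinted genes of the ExE added a readout that total reads do not hold. The deposited allelic ratio gives the share of reads from the maternal (BDF1) and the paternal (CAST) allele, rounded to a hundredth. Of 23 tested imprinted genes, 12 persisted, 2 shrank, 3 widened and none appeared. Over all tested genes these shares were 33.7%, 12.2%, 0.715% and 2.43%. In Eed ExE 14 of the imprinted genes were higher (background 23.9%) and none lower. Sfmbt2, a Polycomb protein gene expressed from the paternal allele in trophoblast, is at chr2:10370437-10595253 and overlaps several miRNA genes. It was 360 to 618 CPM in WT ExE, 624 to 1313 in Eed ExE, 0.660 to 11.4 in WT epiblast and 23.6 to 93.1 in Eed epiblast, with no overlap between any pair of groups. Its difference shrank from 6.60 ± 0.32 to 4.34 ± 0.24 on the log2 scale (edgeR, adjusted p = 3.5e-05) although its level rose in both lineages. The maternal share was 0% in all 7 WT ExE libraries and 31.2% ± 6.66 (SD, n = 10) in Eed ExE. In CPM the maternal allele gave 273 ± 111 and the paternal allele 588 ± 108 in Eed ExE (SD, n = 10), against a paternal level of 438 ± 88.2 in WT ExE (SD, n = 7). In Eed epiblast the maternal share was 28.2% ± 5.43 (SD, n = 9).

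Zdbf2, a paternally expressed gene (chr1:63200358-63314576) and overlaps Gpr1, 1700039I01Rik and Gm11608, shrank from -4.36 ± 0.29 to -2.34 ± 0.20 (edgeR, adjusted p of the change = 1.4e-04). It was 0.687 to 2.63 CPM in WT ExE and 5.50 to 15.5 in Eed ExE. In epiblast it was 19.7 to 44.2 in WT and 28.7 to 76.6 in Eed. The maternal share in epiblast was 2.0% ± 2.38 in WT (SD, n = 7) and 57.1% ± 8.30 in Eed (SD, n = 9), and it was 42.6% ± 9.44 in Eed ExE (SD, n = 10). No WT ExE library held the 10 reads set as the minimum for a share. Cdkn1c, a maternally expressed cell-cycle inhibitor (chr7:143458339-143461073), widened from 2.31 to 3.57 with an adjusted p of 0.043, lost with the replicate block (adjusted p = 0.0649). The change was 2.11 in females (edgeR, adjusted p = 0.012) and 0.44 in males (adjusted p = 0.601), and female Eed ExE was higher than male (1.17, adjusted p = 0.041). It was 29.5 to 65.0 CPM in WT ExE and 139 to 653 in Eed ExE, and its share stayed mostly maternal, at 99.6% ± 0.787 (SD, n = 7) and 92.9% ± 5.04 (SD, n = 10). For its neighbour Phlda2, a growth restrictor of the placenta, the maternal share went from 97.7% ± 2.21 (SD, n = 7) to 75.5% ± 6.90 (SD, n = 10) in ExE. The lineage difference of Phlda2 persisted. Allele shares were described and not tested.

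**Figure D5:**
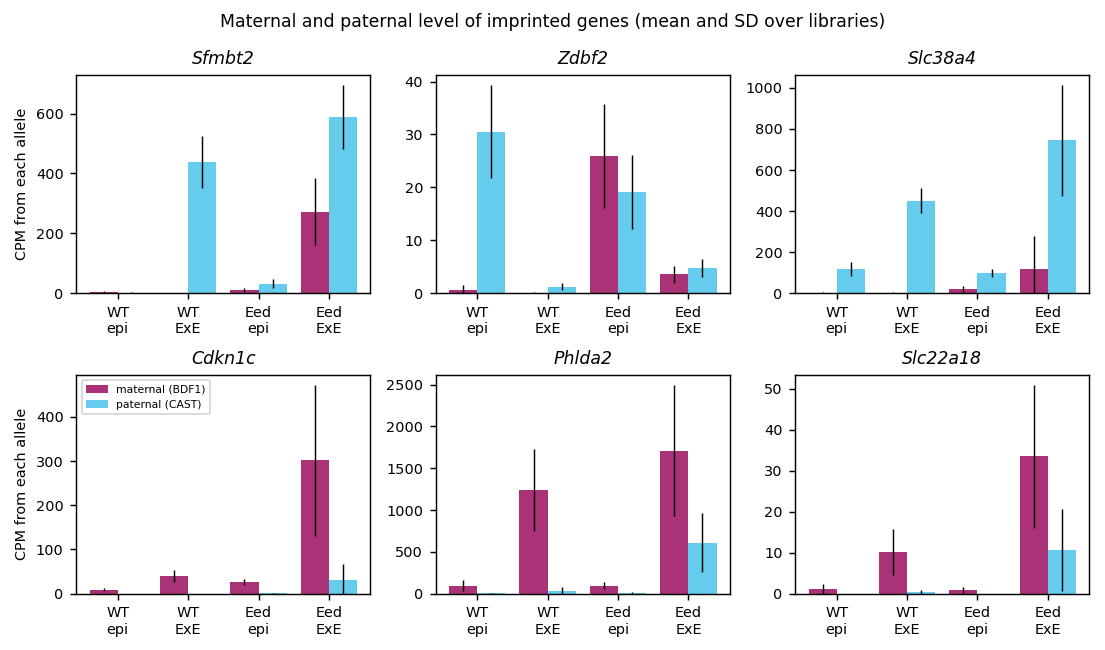
Maternal and paternal CPM (bars, mean; error bars, SD over the libraries) of 6 imprinted genes in the 4 groups. Sfmbt2 has no maternal reads in WT ExE and 273 CPM from the maternal allele in Eed ExE, and Zdbf2 reaches 26.0 maternal CPM in Eed epiblast.

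Allele shares were summarised for genes that rose in Eed ExE and either shrank from an epiblast excess or appeared towards ExE. Their median maternal shares lay near that over all genes, which does not describe single genes or the other genes that rose. For the 543 of 621 epiblast-high genes that shrank, rose in Eed ExE and had enough reads, the median maternal share in Eed ExE was 52.7%. It was 52.5% for the 132 genes whose difference appeared towards ExE with a rise there, and 53.6% over all 10310 genes with a share.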

How the data were processed

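RNA of dissected epiblast and ExE was amplified with SMART-Seq v4, tagmented with Nextera XT and sequenced in pairs on a NovaSeq, per the labels' protocols. The kit marks no strand. STAR 2.5.0, HTSeq and the mm10 build are named in the submitters' processing notes. The deposited table holds 30546 genes. Its deposited counts are reads over SNPs between the parental genomes, per the file headers, so genes with few SNPs are measured with few reads. The deposited allelic ratio (0.5 all CAST, -0.5 all BDF1) is a score made by the authors, and the maternal share was computed from it where a library held 10 reads or more. The deposited allelic score is a −log10 p-value made by the authors and was not used.

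Groups came from the labels. Autosomal genes were filtered with filterByExpr, scaled with TMM and fitted over 33 libraries in edgeR 4.0.16 (R 4.3.3) with the quasi-likelihood test, without a block, and p-values were adjusted over all 11053 genes. Differences are fitted log2 values ± SE. Replicates are separate embryos. Embryo numbers in the labels pair the lineages. Residual correlations of libraries with the same embryo number were 0.015 to 0.331 in WT and -0.425 (embryo 10) to 0.248 in Eed. Titles pair 3 later Eed embryos differently, with correlations of 0.267, 0.034 and 0.323. Title 30 joins an epiblast library labelled female (Xist 50.4 CPM) with an ExE library labelled male (Xist 0). Title 31 joins a male epiblast library (Xist 3.46) with a female ExE library (12.8), so these title pairs are not single embryos by sex. Embryo numbers 8, 9 and 10 each join libraries of the same labelled sex, but the pairing of embryo 10 stays uncertain. Named genes were Eed, the 5 with the largest change per class and direction among genes of at least 10 mean CPM with libraries that did not overlap, and from each list up to 4 by change and 2 that persisted. The text describes a selection of these and of the other list members, made after values were seen. Some of the named genes are not reported here. The members and the lists were chosen with earlier results of these data known. The script was tested on simulated data. There, 32% of true changes of the lineage difference of log2 1 were called, and 93% of those of log2 2. Changes of the smaller size can therefore be missed, and genes with such changes can be classed as persisting. Of the simulated calls, 7.41% were false. Alternatives were RLE scaling, no TMM, other filters, DESeq2 1.42.0, limma 3.58.1 voom, a fold threshold, blocks, sex as a term, separate fits and leaving out libraries. Those on the 6 libraries that stood apart, on autosomal library sizes and on the split by labelled sex were added after seeing the data. Intervals of single shares were not computed, and precision is given by the spread between embryos.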

Additional observations from a re-analysis of the deposited data

Results flagged for a closer look

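A library far from the others of its group was found in 44 of 198 groups of values tested (Dixon's test at 95%). Chance gives about 1 in 20 for independent and normally distributed values. These CPM values were not log-transformed, some lie near 0, and the same libraries recur over genes. The 44 are therefore a description and were not compared with that rate. WT epiblast of embryo 8 had the most such values. It held 19951 genes with reads in 1311863 total reads, and its summed visceral endoderm markers were 1233 CPM and its summed ExE markers 59.46 CPM. In CPM it stood at 38.11 for Eed, 80.04 for Foxd3, 16.77 for Krt19, 19.82 for Parm1, 5.336 for Irx2, 1.525 for Tbx15, 1.525 for Krt7 and 5.336 for Atf3. Elsewhere in WT epiblast, embryo 1 stood apart at 0.4215 CPM for Sox21 and embryo 2 at 158.2 CPM for Utf1.

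In WT ExE, embryo 6 stood apart at 348.8 CPM for Dppa4, 381.8 for Bmp8b, 146.1 for Irx2 and 3.668 for Sfrp1. Embryo 8 did so at 19.65 CPM for Apela and 27.87 for Sycp1, embryo 1 at 0.9824 for Foxd3, embryo 2 at 0.717 for Trh, and embryo 4 at 7.446 for Tbx15.

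In Eed epiblast, embryo 8 was high for ExE genes, with summed ExE markers of 68.02 CPM, Elf5 at 18.88, Ndrg1 at 47.84, Bmp8b at 36.45, Sfmbt2 at 93.07 and Atf3 at 2.278. Embryo 1 was high for Gata4 at 21.68 CPM, Mixl1 at 58.98 and Fn1 at 124.0. Embryo 9 was at 18.66 CPM for Wnt3 and 18.66 for Krt7, and embryo 10 at 4.389 for Wnt4 and 243.4 for L1td1.

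In Eed ExE, embryo 10 was high for epiblast genes, with Fgf5 at 8.533 CPM, Tdgf1 at 21.05 and Trh at 13.65. Embryo 4 stood apart at 7.41 CPM for the summed decidua and blood markers, 212.0 for Peg10, 1313 for Sfmbt2 and 15.46 for Zdbf2, and embryo 1 at 31.33 for Ptch1.

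The lineage difference itself differed between the genotypes for 1705 genes. Among those named, it changed sign with both differences called for Cdkn1a (change 2.844 on the log2 scale) and Tet3 (1.535). Between the sexes, the Eed lineage difference differed for 25 genes, among them Cdkn1a (female minus male 1.917) and Pgf (3.08), with edgeR adjusted p = 0.0495 for each.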

How the results depend on the processing

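For each of the 102 named genes 1 contrast was followed. It was the Eed lineage difference for genes that persisted, Eed against WT in ExE for Eed itself, and the change for the others. No such call changed direction in 16 alternatives and 33 fits without 1 library. Of 4910 values, 4741 kept their side of the threshold and 169 lost the call, and 22 genes lost it at least once. Whether the change of single persisting genes stayed uncalled was not followed, so these values do not show that their class held. Of 391 counts, 356 stayed within 1.5 times of the reported one. Leaving out 1 library gave 5683 to 6292 Eed differences, 6237 to 6795 WT differences and 1468 to 2134 changes of the difference. It gave 3280 to 4087 genes between genotypes in epiblast and 3918 to 4691 in ExE. By class, 3562 to 3883 persisted, 1159 to 1728 shrank, 61 to 91 widened and 214 to 318 appeared. Without a filter the WT differences were 9913. With an absolute log2 difference of at least 1, there were 3278 Eed and 4242 WT differences, 1759 genes between genotypes in epiblast and 2151 in ExE, and 2043 persisted, 43 widened and 158 appeared. Split by labelled sex, which leaves fewer libraries a group, the change was called for 1046 genes in females and 951 in males. With the replicate block by embryo number, the Eed differences were 6046, the WT differences 6526 and the changes 1536, of which 1381 were shared with the reported 1705, and 3908 persisted, 1229 shrank, 70 widened and 236 appeared. The block ended the calls of Mfap4 (adjusted p = 0.107), Nr5a2 (0.0542), Cmklr1 (0.0854), Sycp1 (0.0529), Dnmt3a (0.0583) and Cdkn1c (0.0649), from edgeR. Pairing by title number gave 1900 changes, with 1521 shared, although titles 30 and 31 join libraries of different labelled sex. Genes at 0 in a group have folds limited by its depth.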

Other observations

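Embryo sex, as labelled, moved with expression in Eed ExE, a comparison chosen after the values were seen. Female and male Eed ExE (4 and 6 libraries) differed for 59 of 11053 autosomal genes (0.534%, edgeR adjusted p under 0.05), 35 higher and 24 lower in females. In Eed epiblast 0 genes were called by edgeR, with 1381 at an unadjusted p under 0.05 against 1484 in Eed ExE, and no other tool was run. In WT ExE 5 genes were called and in WT epiblast 23. The difference of the sex difference between Eed ExE and WT ExE was called for 13 genes, so a count in one group alone shows no contrast with another. Of the 35 genes higher in females, 32 also rose in Eed ExE against WT ExE, as did 23.9% of all tested genes. Both calls use the same female Eed ExE libraries, so the overlap is no separate test. Of the 10 tested cell-cycle inhibitors and p53 targets, 4 were higher in female Eed ExE and none lower. Cdkn1c was 356 to 653 CPM in females and 139 to 516 in males (log2 1.17, edgeR adjusted p = 0.041), with overlap. Ccng1, a p53 target, was 321 to 458 CPM in females and 117 to 199 in males (log2 1.19, edgeR adjusted p = 1.8e-04), without overlap. Trp53inp1, another p53 target, was 13.8 to 32.4 CPM in females and 5.11 to 13.5 in males (log2 1.46, adjusted p = 0.0216). Pgf, a placental growth factor, was 26.2 to 57.4 CPM in females and 7.47 to 33.2 in males (log2 1.82, adjusted p = 0.0331), with overlap. The share of reads from X-linked genes was 4.02% to 4.93% in female Eed ExE and 2.28% to 3.29% in male Eed ExE. In the other groups it was 1.75% to 2.63% in females and 2.10% to 2.60% in males. Its part in the autosomal differences was not tested.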
